A study of Mus musculus with 6 samples.

Results

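Oxidative phosphorylation is carried out by enzyme complexes I to V of the inner mitochondrial membrane, most of whose subunits are encoded in the nucleus. The genes described here were chosen by name alone: symbols that begin with Nduf followed by a, b, c, s or v and a digit, the 4 Sdh subunit genes, and symbols that begin with Uqcr, with Cox and a digit from 4 to 8, or with Atp5, leaving out names with "-ps". The rule found 85 of the 30777 genes in the table: 37 of complex I, 4 of complex II, 8 of complex III, 19 of complex IV and 17 of complex V. Ndufa4 and Ndufa4l2 were counted with complex IV, where the Ndufa4 protein resides. The RNA came from colon tissue of BALB/c mice, an inbred laboratory strain, with no genetic change named in the labels. In 3 libraries the mice had received 5-fluorouracil alone (5-Fu), a pyrimidine analogue used against tumours that harms dividing cells of the intestine. In the other 3 libraries they had received 5-fluorouracil together with berberine (5-Fu+BBR), a plant alkaloid. Every group thus carried 5-fluorouracil, and no untreated group was analysed here. The labels used here give no dose, time, age or sex, and they leave unsaid if the samples within a group stem from different animals. The p-values therefore measure only the spread between these samples, which may be technical.

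Complex I (NADH dehydrogenase) and complex II (succinate dehydrogenase) pass electrons to ubiquinone, complex III (cytochrome bc1) passes them to cytochrome c, and complex IV (cytochrome c oxidase) passes them to oxygen. Complexes I, III and IV pump protons across the membrane, and complex V (ATP synthase) makes ATP as the protons flow back. Mature cells of the colon surface draw on this chain to oxidise butyrate, a fatty acid made by gut bacteria. A few subunits of complexes I, III, IV and V are encoded in mitochondrial DNA, so each of these complexes needs the output of both genomes.

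Promoter sequence is described first, as a feature that the choice by name did not use. Any link of promoter letter patterns to the levels in the libraries was not tested. RefSeq promoter windows of GRCm38.p6, from 250 bases before to 50 after the start of transcription (300 bases), were found for 67 of the 85 genes and gave 72 windows. Of these windows, 25% held the palindromic letter pattern of NRF1, a regulator of respiratory chain genes, against 6.4% of the windows of all protein-coding genes and 4.6% of all windows. CCGGAAG, bound by ETS factors such as GABP, was in 23.6% against 11.6% and 8.9%. AAGATGGC, bound by YY1, was in 13.9% against 3.1% and 2.7%. AAGGTCA, bound by oestrogen-related receptors (ERR), was in 11.1% against 4.1% and 4.7%. TGACGTCA, the cyclic AMP response element (CRE), was in 5.6% against 2.2% and 1.8%. At least 1 of the first 3 patterns was in 54.2% of the subunit windows, 18.9% of those of protein-coding genes and 14.7% of all windows. Both strands were searched, and matches to different patterns overlapped in 0 of the 72 windows. The median GC content was 57.5% in the subunit windows and 56.3% in those of protein-coding genes. A match is a description of the letters and does not show that a factor was bound. Shown next are 120-base stretches just upstream of the annotated exons of 6 subunit genes chosen as examples of 4 of the patterns, with a second gene for NRF1 and ETS. They are written 5′ to 3′ on the strand of the gene, with the matched pattern in capitals. The Ndufs5 stretch (complex I, chr4:123718203-123718322, minus strand) and the Cox6a1 stretch (complex IV, chr5:115348982-115349101, minus strand) hold the NRF1 pattern. The Uqcr11 stretch (complex III, chr10:80406831-80406950, minus strand) and the Uqcrh stretch (complex III, chr4:116075072-116075191, minus strand) hold the ETS pattern, the latter in reverse. The Atp5g3 stretch (complex V, chr2:73911327-73911446, minus strand) holds the ERR pattern in reverse, and the Ndufb2 stretch (complex I, chr6:39592445-39592564, plus strand) holds the CRE.
Ndufs5: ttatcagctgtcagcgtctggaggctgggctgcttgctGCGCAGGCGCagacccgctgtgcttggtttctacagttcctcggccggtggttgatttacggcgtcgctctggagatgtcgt
Cox6a1: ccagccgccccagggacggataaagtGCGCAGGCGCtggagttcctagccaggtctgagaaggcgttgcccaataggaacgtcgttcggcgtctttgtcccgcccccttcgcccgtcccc
Uqcr11: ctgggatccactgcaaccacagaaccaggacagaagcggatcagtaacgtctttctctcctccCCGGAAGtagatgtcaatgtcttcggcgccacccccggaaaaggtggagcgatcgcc
Uqcrh: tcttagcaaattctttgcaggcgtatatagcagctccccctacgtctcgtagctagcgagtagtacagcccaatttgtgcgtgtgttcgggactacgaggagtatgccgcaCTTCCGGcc
Atp5g3: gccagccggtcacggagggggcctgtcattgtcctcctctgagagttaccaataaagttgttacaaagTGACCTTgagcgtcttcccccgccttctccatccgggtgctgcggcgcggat
Ndufb2: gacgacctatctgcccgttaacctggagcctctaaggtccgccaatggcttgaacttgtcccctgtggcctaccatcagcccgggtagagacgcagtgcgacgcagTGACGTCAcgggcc

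Library totals lay between 53824752 and 63831168 estimated counts, and 20101 genes were high enough to be tested. The colon label held: all 13 epithelial markers examined, among them Epcam, Vil1 and Cdx2, were present in every library. Markers of surface colonocytes were lowest in 5-Fu replicate 2, where Slc26a3, a chloride exchanger, was at 229 CPM (the count of a gene scaled to library size) against 551 and 824 CPM in the other 5-Fu libraries and 338 to 799 CPM in 5-Fu+BBR. In 5-Fu+BBR replicates 2 and 3, transcripts of the kidney were present: the summed level of 9 kidney markers was 201 and 205 CPM there, against 39.6 CPM in replicate 1 and 46.8 to 62.5 CPM in 5-Fu. Kidney is rich in mitochondria, so results were also computed with 5-Fu+BBR replicate 1 alone. A single library cannot separate kidney RNA from other differences of that sample. The part of kidney RNA in the levels of the subunit genes was not tested.

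Subunit genes were among the abundant transcripts of the colon, and complexes IV and V stood above complex I. Together the 84 tested subunit genes took between 1.29% and 1.75% of the counts of all genes tested. Levels of different genes were compared as CPM per kilobase of the principal transcript, since the deposited FPKM (fragments scaled to gene length and library depth) is scaled to the merged length of all exons of a gene and understates genes with long minor transcripts. On this scale the median gene of complex I was at 90.6 CPM per kilobase over the 34 genes with a mean FPKM of at least 10 and a principal transcript. With the same limits the medians were 143 CPM per kilobase for complex II (4 genes) and 224 for complex III (8 genes). They were 340 for complex IV (13 genes) and 304 for complex V (17 genes). In complex IV the limits left out the isoforms of low level described further below, with which its median would be lower. Atp5b, the catalytic beta subunit of ATP synthase, was the highest with 951 CPM per kilobase, followed by Cox4i1 of complex IV with 804 CPM per kilobase. By deposited FPKM the order at the top was another one, with Cox6a1 at 456 FPKM, Cox8a at 409 FPKM and Atp5a1 at 395 FPKM. Ndufb2 shows the size of the effect of length: its merged exons span 5628 bases and its principal transcript 455 bases, and its level was 4.41 FPKM but 64.9 CPM per kilobase, within the range of the other complex I genes. The spread within a complex was wide, from 24.96 CPM per kilobase for Ndufa12 to 238 for Ndufb9 in complex I, and from 132 for Atp5k to 951 for Atp5b in complex V.

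**Figure D1:**
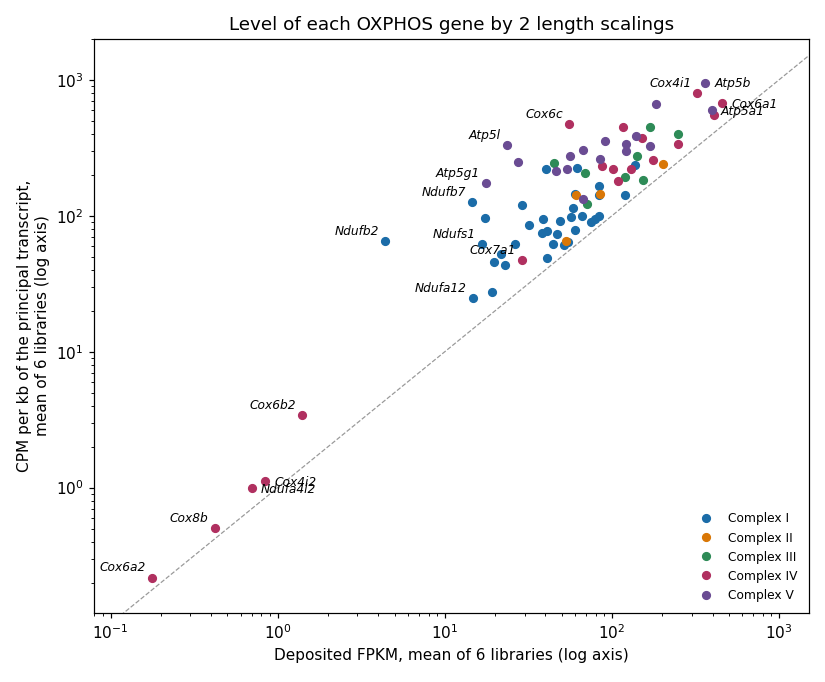
Mean level of each subunit gene with a principal transcript over the 6 libraries, as deposited FPKM (x, log axis) and as CPM per kilobase of the principal transcript (y, log axis), 1 point per gene, coloured by complex; the dashed line marks equal values. Ndufb2 and Atp5l lie far above the line, and Cox6a2, Cox8b, Ndufa4l2, Cox4i2 and Cox6b2 form a separate low group at 0.218 to 3.39 CPM per kilobase.

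The comparison of the groups asked which colon genes respond to berberine given on top of 5-fluorouracil. No subunit gene passed it: by edgeR's quasi-likelihood test with Benjamini-Hochberg adjustment over 20101 genes, 0 of 84 subunit genes had an adjusted p under 0.05, where 0.0597% of all genes were called higher and 0.0149% lower. DESeq2, limma-voom and limma-trend on FPKM also called 0. At an unadjusted p under 0.05 edgeR gave 4 subunit genes, all lower in 5-Fu+BBR (among them Ndufa4, Sdhd and Ndufv1), and 0 higher, against 6.08% of all genes lower and 9.48% higher. Those 4 are 4.76% of the subunit genes tested, a share below the background. Groups did not overlap for 5 subunit genes, all lower (the same 4 and Atp5a1), which is 5.95% of them, against 9.68% of all genes lower and 12.3% higher. The direction was nevertheless lopsided: 71 of 84 had a negative log2 fold change (5-Fu+BBR minus 5-Fu), where 49.3% of all genes did. The median log2 fold change was -0.16, a level 10.6% lower, against 0.0051 for all genes tested. In complexes I to V the medians were -0.15, -0.19, -0.23, -0.15 and -0.17. Of the 77 genes with a mean FPKM of at least 10, 69 were negative, and for 77 of 77 the 95% interval of the fold change lay within 2-fold in either direction. Genes in bulk tissue cannot show whether fewer cells of a type or less RNA per cell was measured.

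**Figure D2:**
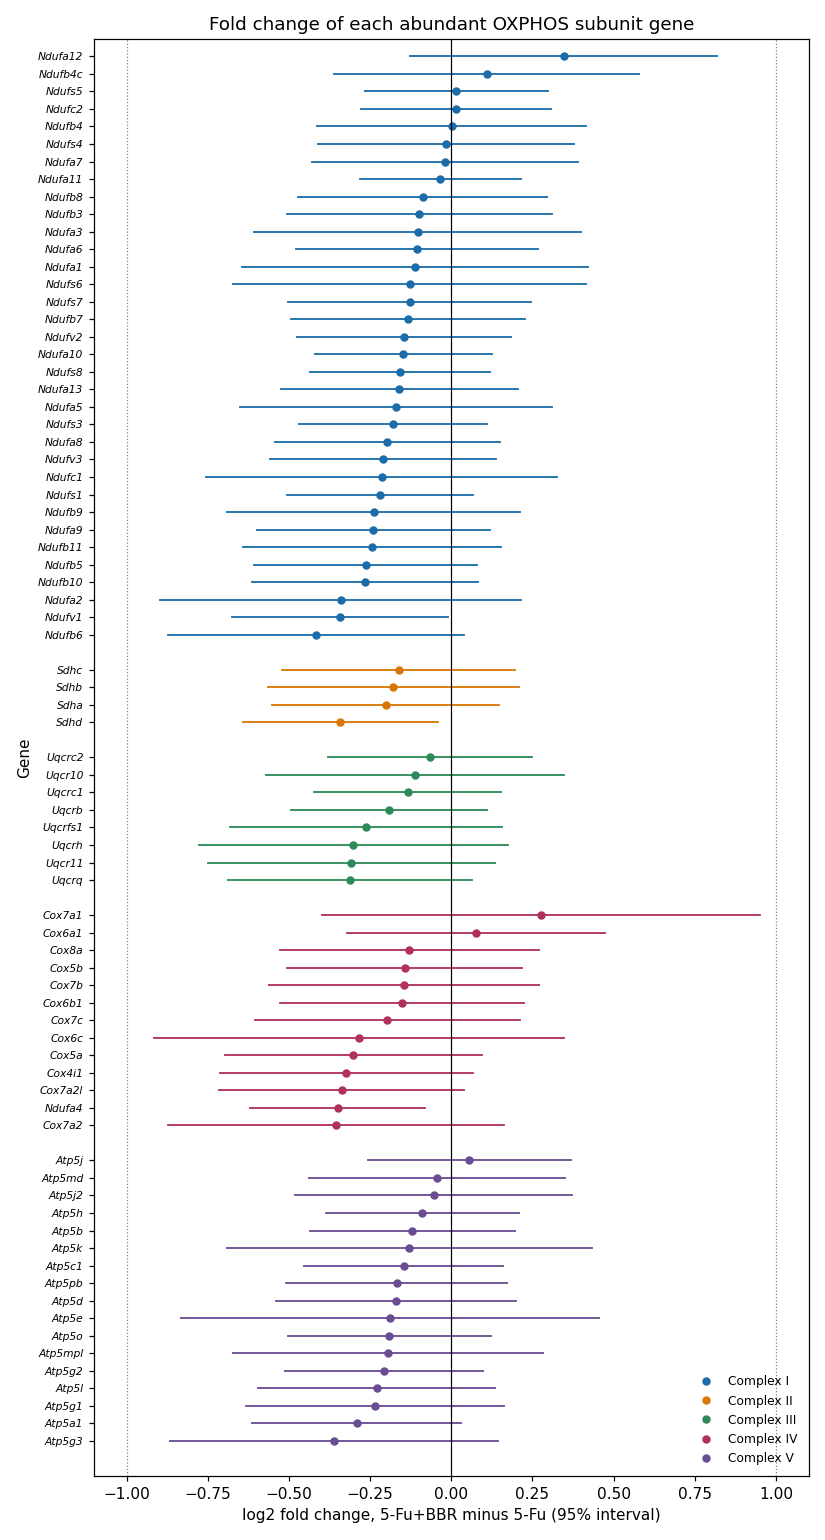
Log2 fold change (5-Fu+BBR minus 5-Fu) of 76 subunit genes with a mean FPKM of at least 10, grouped by complex. The 95% intervals were derived from the F statistics of edgeR, and dotted lines mark a 2-fold difference. Points of 68 genes lie left of 0, and every interval stays within 2-fold.

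The small common difference was within the spread of the 5-Fu libraries. With each gene set against its mean in 5-Fu, the median subunit gene was at 0.10, -0.29 and 0.19 on the log2 scale in 5-Fu replicates 1 to 3 and at -0.31, -0.13 and -0.03 in 5-Fu+BBR replicates 1 to 3. The groups overlapped, since 5-Fu replicate 2 lay below 5-Fu+BBR replicates 2 and 3. The difference of the group means of these medians was -0.16, and their SD within 5-Fu was 0.26 (n = 3). The genes varied together from library to library: 80 of 84 were higher in 5-Fu replicate 3 than in 5-Fu replicate 2, with a median difference of 0.50, where the median of all genes was -0.02. In 5-Fu replicates 1, 2 and 3, 77, 4 and 80 of the 84 lay above their 5-Fu mean, and in 5-Fu+BBR replicates 1, 2 and 3 it was 9, 17 and 35. The lowest library was 5-Fu replicate 2 or 5-Fu+BBR replicate 1 for 71 genes, and the highest was 5-Fu replicate 1 or 3 for 71 genes. The difference thus leaned on single libraries. Without 5-Fu replicate 2 the median log2 fold change was -0.29 and 19 genes had an unadjusted p under 0.05. Without 5-Fu replicate 3 it was -0.05 with 3 such genes, and without 5-Fu+BBR replicate 1 it was -0.10 with 0 such genes. Without 5-Fu replicate 1 there were also 0 such genes, and without 5-Fu+BBR replicate 2 there was 1. Calls over all genes moved with the library left out too. At an adjusted p under 0.05 by edgeR they were 15 in the full fit. They were 159 without 5-Fu replicate 2, 53 without 5-Fu replicate 3, 54 without 5-Fu+BBR replicate 1 and 0 without 5-Fu replicate 1. The share of all genes at an unadjusted p under 0.05 in these fits is not given here. The counts above are thus not a result about the subunit genes. With 5-Fu+BBR replicate 1 alone, the lowest library of its group, the median was -0.33, in a fit that takes its spread from the 5-Fu libraries only. None of these fits called a subunit gene at an adjusted p under 0.05. The surface colonocyte genes Slc26a3, Car1, Car4 and Aqp8 were also lowest in 5-Fu replicate 2, while within 5-Fu+BBR Car4 and Aqp8 were lowest in replicate 1 and Slc26a3 and Car1 in replicate 2. Car4, a carbonic anhydrase of the colon surface, measured 472, 102 and 764 CPM in the 5-Fu libraries and 282, 320 and 391 CPM in those of 5-Fu+BBR, in the order of the replicate numbers. Over all 13 epithelial markers the library medians were -0.0075, -0.19 and 0.23 in 5-Fu and -0.02, -0.05 and 0.07 in 5-Fu+BBR. The part of this variation in the subunit genes was not tested.

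**Figure D3:**
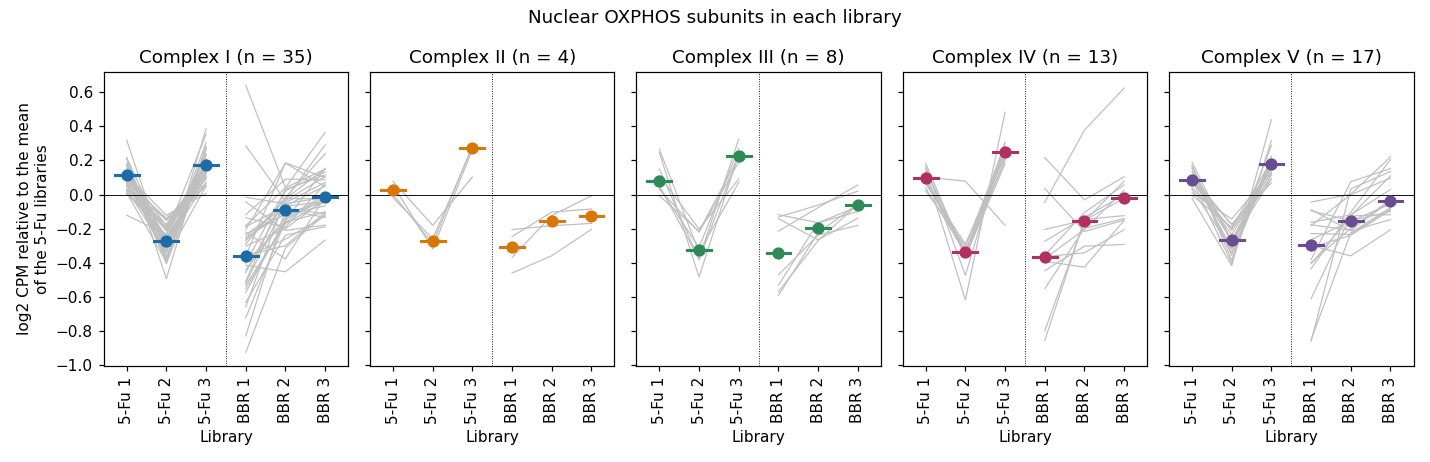
Log2 CPM of each subunit gene with a mean FPKM of at least 10, relative to its mean in 5-Fu, in each library (x) by complex; grey lines join the values of 1 gene within a group and have no meaning as an order, and coloured points are the medians. In all 5 complexes 5-Fu replicate 2 and 5-Fu+BBR replicate 1 have the lowest medians of their groups.

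In complex I the 7 nuclear core subunits, which carry the flavin and the iron-sulphur clusters or the ubiquinone site, all had negative log2 fold changes, with a median of -0.18. Ndufv1 (ENSMUSG00000037916, chromosome 19, 4007384 to 4012759 of GRCm38), which binds NADH and the flavin, was at 181.9, 153.0 and 176.5 CPM in 5-Fu and at 109.8, 144.2 and 149.2 CPM in 5-Fu+BBR. Here 5-Fu+BBR replicate 1 stood lowest, and the groups did not overlap. Its log2 fold change was -0.34 ± 0.14 (SE), from 170.5 ± 15.3 to 134 ± 21.5 CPM (SD, n = 3), with an adjusted p of 0.307 by edgeR's quasi-likelihood test with Benjamini-Hochberg adjustment. Ndufb9, an accessory subunit with the highest FPKM of complex I, was at 198.8, 138.8 and 206.8 CPM in 5-Fu and at 122.0, 159.7 and 179.7 CPM in 5-Fu+BBR, so the groups overlapped. Its adjusted p was 0.604 (edgeR). Of the 30 complex I genes outside the core, 25 had a negative log2 fold change. Ndufb6 had the lowest at -0.42 ± 0.20, with an interval from -0.87 to 0.04. Ndufa12 had the highest at 0.35 ± 0.20 with an adjusted p of 0.467 (edgeR), and its level of 37.4 CPM in 5-Fu+BBR replicate 1 was the highest of its 6 libraries. Ndufs5, whose NRF1 pattern is shown above, had a log2 fold change of 0.02 ± 0.12. Ndufb4c and Ndufs6b, which the rule also takes, are annotated as processed pseudogenes, at 17.3 and 1.23 FPKM, and reads may have been split between them and their parent genes.

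Complex II, which also works in the citric acid cycle and has no subunit encoded in mitochondrial DNA, had 4 of 4 negative log2 fold changes. Sdhd (ENSMUSG00000000171, chromosome 9, 50596357 to 50603812), which anchors the complex in the membrane, was at 347.8, 290.9 and 354.0 CPM in 5-Fu and at 239.7, 257.2 and 286.2 CPM in 5-Fu+BBR. The groups did not overlap, with 5-Fu replicate 2 only just above 5-Fu+BBR replicate 3. Its log2 fold change was -0.34 ± 0.13, with an interval from -0.64 to -0.04 and an adjusted p of 0.271 (edgeR). Sdha, the flavoprotein that oxidises succinate, was at 434.6, 367.4 and 533.3 CPM in 5-Fu and at 381.6, 387.6 and 391.3 CPM in 5-Fu+BBR. Its 5-Fu libraries lay on both sides of the 5-Fu+BBR ones, and the log2 fold change of -0.20 ± 0.15 had an adjusted p of 0.567 (edgeR). The other two, Sdhb and Sdhc, had log2 fold changes of -0.18 and -0.16.

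In complex III all 8 genes had a negative log2 fold change and all 8 overlapped between the groups. Uqcrq, a small subunit, was at 129.1, 84.98 and 112.8 CPM in 5-Fu and at 77.5, 91.1 and 94.7 CPM in 5-Fu+BBR. The value of 5-Fu replicate 2 lay among those of 5-Fu+BBR. Its log2 fold change was -0.31 ± 0.16 with an adjusted p of 0.403 (edgeR). Uqcr11, a small subunit whose ETS pattern is shown above, was at 65.7, 45.4 and 69.6 CPM in 5-Fu and at 39.9, 49.1 and 56.95 CPM in 5-Fu+BBR, with a log2 fold change of -0.31 ± 0.19. Again 5-Fu replicate 2 lay among the 5-Fu+BBR libraries. Uqcr10, the complex III gene with the highest FPKM, was at 207.8, 125.4 and 206.6 CPM in 5-Fu and at 151.0, 166.1 and 182.1 CPM in 5-Fu+BBR, so that 5-Fu replicate 2 was the lowest library of all. Uqcrc1 and Uqcrc2, the large core proteins, had log2 fold changes of -0.13 ± 0.13 and -0.07 ± 0.14.

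In complex IV, 11 of the 13 genes with a mean FPKM of at least 10 had a negative log2 fold change. Ndufa4 (ENSMUSG00000029632, chromosome 6, 11900292 to 11907483), a subunit first assigned to complex I, had the smallest p of all subunit genes. It was at 170.8, 168.0 and 140.4 CPM in 5-Fu and at 116.9, 129.0 and 130.0 CPM in 5-Fu+BBR. The groups did not overlap, and unlike most subunit genes it had 5-Fu replicate 3, not replicate 2, as the lowest 5-Fu library. Its log2 fold change was -0.35 ± 0.12, with an interval from -0.62 to -0.08 and an adjusted p of 0.226 by edgeR's quasi-likelihood test with Benjamini-Hochberg adjustment. Cox7a2l, which by name falls here but is known as a factor that joins complexes III and IV into supercomplexes, was at 215.7, 172.3 and 258.0 CPM in 5-Fu and at 162.0, 158.2 and 191.3 CPM in 5-Fu+BBR. Its groups overlapped, and its log2 fold change of -0.34 ± 0.16 had an adjusted p of 0.371 (edgeR). Cox6a1, the gene with the highest FPKM of all, was at 387.0, 286.4 and 443.0 CPM in 5-Fu and at 425.4, 358.3 and 393.4 CPM in 5-Fu+BBR. It was 1 of the 8 abundant genes with a positive log2 fold change, 0.08 ± 0.17, and that sign turned to -0.08 without 5-Fu replicate 2. Cox4i1, the gene of a subunit that binds ATP and ADP, was at 728.0, 512.4 and 757.2 CPM in 5-Fu and at 510.1, 517.9 and 569.0 CPM in 5-Fu+BBR. Its 5-Fu replicates 1 and 3 stood above all others and replicate 2 among the 5-Fu+BBR libraries (log2 fold change -0.32 ± 0.17, adjusted p = 0.403 by edgeR). Cox7b was at 300.8, 205.8 and 300.4 CPM in 5-Fu and at 207.2, 246.3 and 275.5 CPM in 5-Fu+BBR. Its groups overlapped, with a log2 fold change of -0.15 ± 0.18.

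In complex V, 16 of 17 genes had a negative log2 fold change, including all 5 genes of the catalytic F1 head. Atp5a1 (ENSMUSG00000025428, chromosome 18, 77773729 to 77782869), the alpha subunit of that head, was at 1742, 1430 and 1696 CPM in 5-Fu and at 1315, 1260 and 1401 CPM in 5-Fu+BBR. The groups did not overlap, though 5-Fu replicate 2 and 5-Fu+BBR replicate 3 were close. The log2 fold change was -0.29 ± 0.14, with an interval from -0.61 to 0.03 and an adjusted p of 0.365 (edgeR). Atp5b, the beta subunit, had a log2 fold change of -0.12 ± 0.14. The ring that turns in the membrane is made of 1 protein encoded by 3 genes, Atp5g1, Atp5g2 and Atp5g3, which differ in the part that is cut off on import. Atp5g3 was the most abundant of them, at 662 CPM per kilobase against 304 for Atp5g2 and 173 for Atp5g1. It was at 599.9, 433.3 and 560.7 CPM in 5-Fu and at 291.8, 450.4 and 498.9 CPM in 5-Fu+BBR. The low value of 5-Fu+BBR replicate 1 stood apart from the other 5 libraries, which overlapped. Its log2 fold change was -0.36 ± 0.22 with an adjusted p of 0.477 (edgeR), while Atp5g1 and Atp5g2 were at -0.23 ± 0.17 and -0.21 ± 0.13. Atp5j, a stalk subunit, had the only positive value of complex V, 0.06 ± 0.14.

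Tissue and stress isoforms of complex IV were at low levels in this tissue, with Cox7a1 as the exception. The hypoxia isoform Cox4i2 was at 0.468 to 1.07 CPM. Its share of the summed Cox4i1 and Cox4i2 levels per kilobase was 0.0659%, 0.149% and 0.117% in 5-Fu. In 5-Fu+BBR the share was 0.214%, 0.157% and 0.162%, so the groups did not overlap, at a low level of the gene. Cox6b2, the testis isoform, made up 0.533% to 1.297% of the Cox6b1 and Cox6b2 sum. Ndufa4l2, the hypoxia-induced relative of Ndufa4, made up 0.127% to 1.09% of the pair, with its highest share in 5-Fu+BBR replicate 1. Cox8b and Cox6a2, the heart and skeletal muscle isoforms, reached at most 0.470 and 0.434 CPM. Cox8b was listed at 0 in 5-Fu replicates 1 and 2 and Cox6a2 in 5-Fu replicate 2, and Cox6a2 was the 1 subunit gene too low to be tested. Cox6c2, annotated as a processed pseudogene, was at 1.58 to 3.26 CPM. Over all complexes, 7 tested genes had a mean FPKM under 10, and 0 of them had an unadjusted p under 0.05. The 2 with a negative log2 fold change were the complex I genes Ndufb2 (-0.01) and Ndufs6b (-0.24). Those of complex IV were positive.

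Cox7a1, the isoform of heart and skeletal muscle, stood above these isoforms at a mean of 29.0 FPKM, and its share of its pair was higher in each 5-Fu+BBR library than in any 5-Fu library. Its level was 17.5, 10.4 and 22.3 CPM in 5-Fu and 15.5, 20.8 and 24.6 CPM in 5-Fu+BBR, so the groups overlapped. Cox7a2, the isoform found in most tissues, was at 176.9, 128.5 and 185.9 CPM in 5-Fu and at 89.4, 146.1 and 148.4 CPM in 5-Fu+BBR, which also overlapped. Neither passed, with log2 fold changes of 0.28 ± 0.29 (adjusted p = 0.696) and -0.36 ± 0.22 (adjusted p = 0.496) by edgeR. Their ratio did separate the groups, as the far smaller Cox4i2 share also did. Cox7a1 made up 14.3%, 11.96% and 16.8% of the summed Cox7a1 and Cox7a2 levels per kilobase in 5-Fu and 22.5%, 19.2% and 21.8% in 5-Fu+BBR. All 3 shares in 5-Fu+BBR lay above all 3 in 5-Fu. The means were 14.3 ± 2.40% and 21.2 ± 1.71% (SD, n = 3), a difference of 6.84 percentage points with a two-sided exact permutation p of 0.1, the smallest that 3 against 3 can give. Leaving out 1 library at a time gave differences from 5.65 to 8.05 points, and deposited FPKM gave 7.07 points. This pair was examined as a ratio after its values had been seen. Groups of 3 without overlap always give this p, so it adds no support and the difference is a description. Smooth muscle markers were higher in 5-Fu+BBR. For 7 of 7 (Acta2, Myh11, Actg2, Cnn1, Tagln, Des and Smtn) the groups did not overlap. Over all genes tested, 12.3% were higher without overlap. The summed level of the smooth muscle markers was 2278 to 2976 CPM in 5-Fu and 4206 to 4780 CPM in 5-Fu+BBR. The skeletal muscle markers were near 0, with a summed level over 9 genes of 12.7 to 20.3 CPM in 5-Fu and 13.1 to 18.0 CPM in 5-Fu+BBR. Brown fat markers were at or near 0 as well: Cidea and Elovl3 summed to 0.208 to 0.576 CPM over the 6 libraries. Within 5-Fu+BBR, replicate 1 had the highest Cox7a1 share. It also had the lowest Cox7a1, Cox7a2 and summed smooth muscle levels of that group (4206 CPM for the last). Within 5-Fu, replicate 2 had the lowest share and the lowest summed smooth muscle level (2278 CPM). The part of smooth muscle in the Cox7a1 share was not tested.

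**Figure D4:**
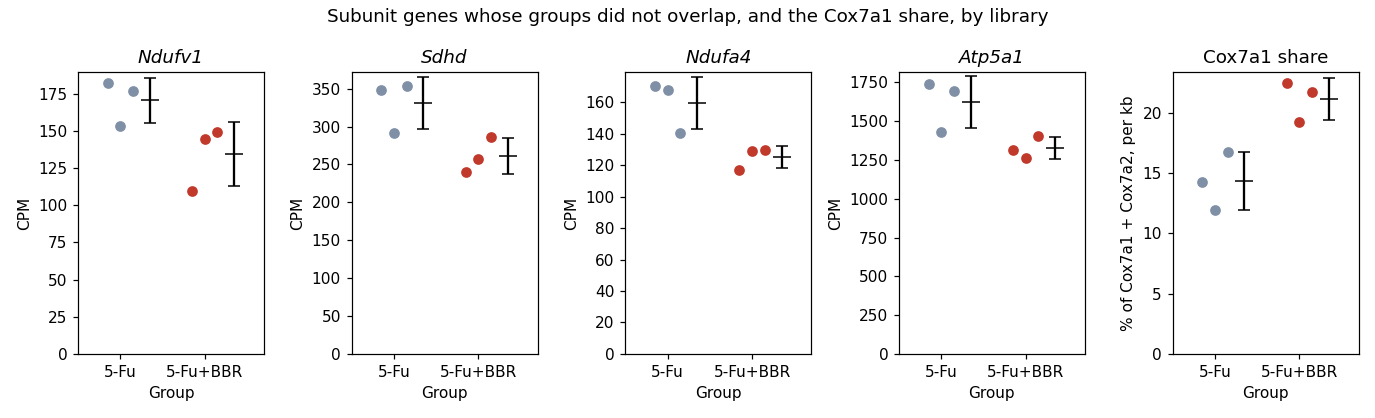
CPM of Ndufv1, Sdhd, Ndufa4 and Atp5a1, whose groups did not overlap, and the share of Cox7a1 in the summed Cox7a1 and Cox7a2 levels per kilobase (right panel, percent); points are libraries 1 to 3 from left to right in each group, and the bar beside them is the mean with its SD. The gene levels lie lower in 5-Fu+BBR with gaps that are small beside the spread within 5-Fu, and the Cox7a1 share lies between 11.96% and 16.8% in 5-Fu and between 19.2% and 22.5% in 5-Fu+BBR.

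The 13 subunits encoded in mitochondrial DNA had log2 fold changes on both sides of 0. Of these genes 5 had a negative log2 fold change and the median was 0.04, with 0 at an unadjusted p under 0.05 by edgeR. Their library medians were -0.12, -0.22 and 0.37 in 5-Fu and 0.26, -0.08 and -0.0016 in 5-Fu+BBR. In 5-Fu+BBR replicate 1, where nuclear subunit genes were lowest, the mitochondrial ones were above their 5-Fu mean. That library gave 1.29% of its counts to nuclear and 5.41% to mitochondrial subunits, while the 3 libraries of 5-Fu gave 1.75%, 1.45% and 1.75% to nuclear and 4.41%, 4.16% and 5.61% to mitochondrial subunits. The mitochondrial share in 5-Fu+BBR replicate 1 was thus within the range of 5-Fu, and the nuclear share was below it. The most abundant, mt-Co1 of complex IV, was at 18242, 16166 and 26179 CPM in 5-Fu and at 25532, 20434 and 20698 CPM in 5-Fu+BBR, which overlapped. Of these genes mt-Nd3 of complex I had the smallest p, at 253, 218 and 374 CPM against 213, 211 and 233 CPM (log2 fold change -0.37 ± 0.20, adjusted p = 0.416 by edgeR).

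Other nuclear genes of mitochondria lay on the same side as the subunit genes. Over all genes tested, 49.3% had a negative log2 fold change, and 6.08% had an unadjusted p under 0.05 and were lower (edgeR). Of 4 subunit or electron carrier genes that the naming rule leaves out (Ndufab1, Cyc1, Cycs and Ndufb1-ps), 3 had a negative log2 fold change and 0 an unadjusted p under 0.05. Among 46 tested assembly factors, 36 were negative (median -0.12) and 1 had an unadjusted p under 0.05. In the citric acid cycle 13 of 13 were negative (median -0.14, 0 at an unadjusted p under 0.05), and among mitochondrial ribosomal proteins 66 of 78 (median -0.15, 4 at an unadjusted p under 0.05, all lower). For 16 genes of protein import and chaperones the median was -0.28, with 16 of 16 negative and 4 at an unadjusted p under 0.05. In that list Tomm40, the import channel of the outer membrane, was at 71.6, 52.9 and 55.4 CPM in 5-Fu and at 44.3, 46.4 and 44.0 CPM in 5-Fu+BBR, which did not overlap. Its log2 fold change was -0.42 ± 0.13 with an adjusted p of 0.209 (edgeR). Hspa9, the chaperone that pulls proteins into the matrix, was at 417, 371 and 346 CPM against 276, 312 and 286 CPM (-0.37 ± 0.12, adjusted p = 0.223 by edgeR), also without overlap. Here the library medians of the list did not overlap, being 0.15, -0.14 and -0.07 in 5-Fu and -0.44, -0.16 and -0.21 in 5-Fu+BBR. The 15 regulators of mitochondrial gene expression had a median of -0.12 with 11 negative. Their library medians did not overlap either, at 0.015, -0.058 and 0.032 in 5-Fu and -0.151, -0.083 and -0.064 in 5-Fu+BBR. At an unadjusted p under 0.05 by edgeR, 1 of the 15 was higher and 0 lower, where 9.48% of all genes were higher. Groups did not overlap for 2 that were higher and 4 that were lower, against 12.3% and 9.68% of all genes. Ppargc1a, a coactivator of NRF1 and oestrogen-related receptors, was at 37.9, 36.7 and 47.4 CPM in 5-Fu and at 56.5, 51.3 and 53.9 CPM in 5-Fu+BBR. All 5-Fu+BBR values lay above all 5-Fu values, opposite in direction to most subunit genes (log2 fold change 0.41 ± 0.12, adjusted p = 0.199 by edgeR). Nrf1 and Gabpa, whose proteins bind patterns shown above, had log2 fold changes of -0.09 and -0.07. None of the genes in these lists passed an adjusted p of 0.05 by edgeR.

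**Figure D5:**
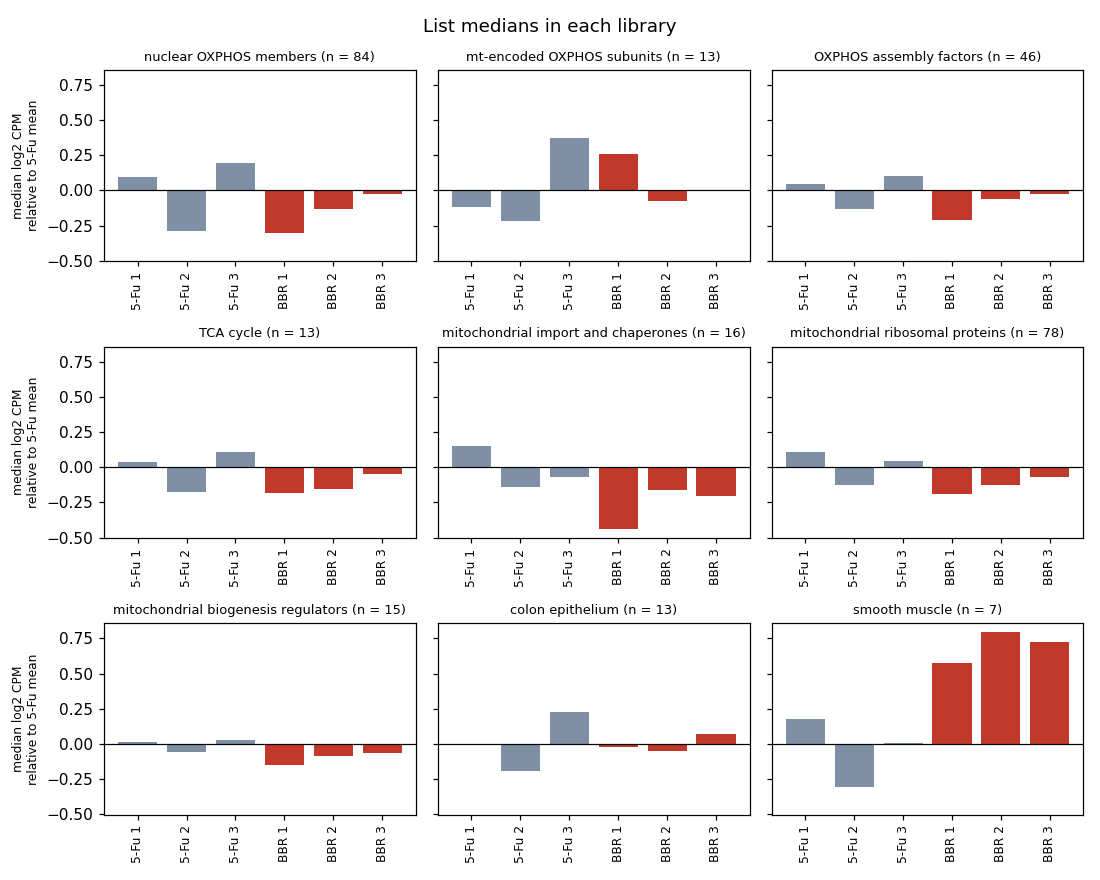
Median log2 CPM of each gene list relative to its 5-Fu mean, by library (bars from 0; grey 5-Fu, red 5-Fu+BBR), with the number of genes tested in each title. Bars of the nuclear subunit genes in 5-Fu reach from -0.29 to 0.19, smooth muscle bars are above 0.5 in all 3 libraries of 5-Fu+BBR, and mt-encoded subunits are at 0.26 in 5-Fu+BBR replicate 1, where the nuclear ones are at -0.31.

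Markers of other tissue layers differed between the groups beside these results. Over all genes tested, 12.3% were higher in 5-Fu+BBR without overlap of the groups and 9.68% were lower without overlap. For fat the groups did not overlap for 6 of 6 markers, and their summed level was 30.7 to 37.7 CPM in 5-Fu and 80.2 to 133 CPM in 5-Fu+BBR; Lep was listed at 0 in all 3 libraries of 5-Fu. Of the 8 immune markers, 5 did not overlap and were higher in 5-Fu+BBR, and the sum of all 8, in which Jchain and Lyz2 weigh most, was 610 to 845 CPM in 5-Fu and 1058 to 1923 CPM in 5-Fu+BBR. The neutrophil genes S100a8 and S100a9 had negative log2 fold changes, -2.89 and -2.59, with overlapping groups. The 13 epithelial markers had a median log2 fold change of 0.02, with 0 that did not overlap. How much these layers contribute to the values of the subunit genes was not tested. Many subunit transcripts are short, so the genes were also divided by the length of the principal transcript at 700 bases. The 37 shorter subunit genes had a median log2 fold change of -0.13 and the 44 longer ones -0.17. Over all genes tested that have a principal transcript, the medians were -0.10 for 413 shorter and -0.008 for 14955 longer genes.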

How the data were processed

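Per the labels' protocols, polyadenylated RNA was made into strand-marked libraries and sequenced as paired reads. Per the submitters' processing notes, the tools included StringTie 1.3.4d, HISAT2 2.0.4, cutadapt 1.9, edgeR, DESeq2 and UMI-tools, with GRCm38 as the build; their roles and the annotation version are not given in the sources used here. The deposited table holds estimated counts as whole numbers and FPKM, both computed by the authors. In every library more genes had a deposited count of 4 than of 3 or 5, so 1 fragment may stand for about 4 counts, and low counts may look too precise. For 98.7% to 98.8% of genes with over 500 counts, the deposited FPKM was within 2% of the count divided by the merged exon length of GENCODE M21 and a constant of the library.

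The deposited counts were filtered with filterByExpr (20101 of 30777 genes), scaled with TMM and tested two-sided with the robust quasi-likelihood test of edgeR 4.0.16 (R 4.3.3), with Benjamini-Hochberg adjustment and no covariates, using all 6 libraries grouped by their treatment labels. CPM are TMM-scaled counts. The SE of a log2 fold change was derived from edgeR's F statistic, as the absolute log2 fold change over the square root of F. Intervals are 95% and use this SE with the t distribution, so SE and intervals are approximate. Library totals are given in the report; with so many counts, the number of libraries and not counting limits the precision of the abundant subunit genes. Principal transcripts are APPRIS principal ones with the best support, then the shortest. Named in every case were the 2 subunit genes of smallest p and the one of highest FPKM in each complex, isoform sets and untested genes; 1 of these genes is not reported here. Other members, such as Ndufb6, Ndufa12 and Ndufs5, were chosen after their values were seen. The members, lists and alternatives were chosen with earlier results of these data known. Replicates of a group differed beyond sampling noise in a chi-square comparison. The fit was also run on simulated counts with changes of 2-fold or more. Its outcome is not given here, and it does not bear on differences as small as those of the subunit genes. Alternatives were a replicate block, no filter, 50 counts in 3 libraries, DESeq2 size factors, library totals, DESeq2 1.42.0, limma 3.58.1 (voom, and trend on log2(FPKM + 1) and log2(FPKM + 0.1), keeping genes that reach an FPKM of 1 in 3 libraries), counts divided by 4, each library left out, and 5-Fu+BBR replicate 1 alone. Python 3.11.15, pandas 2.3.3 and matplotlib 3.10.9 were used for tables and figures.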

Additional observations from a re-analysis of the deposited data

How the results depend on the processing

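In all 17 alternative fits 0 subunit genes were called at an adjusted p under 0.05, and the median log2 fold change of the subunit genes stayed negative, from -0.33 to -0.05. The median of complex I was -0.38 with 5-Fu+BBR replicate 1 alone against 5-Fu. The number of genes called among all genes, 15 as reported, was 77 without a filter, 26 with library totals only, 1119 with DESeq2, 7 with limma-trend on log2(FPKM + 0.1), 0 with 5-Fu+BBR replicate 1 alone, and 0 to 159 with 1 library left out. Of 416 values of the 25 named members under the alternatives, 407 had the reported sign and 0 passed an adjusted p of 0.05. The causes were not tested. With the replicate number as a block, 113 genes were called, 0 of them subunit genes, and the median of the subunit genes was -0.15. Deviations of samples with the same number correlated by 0.06, 0.02 and 0.12 across genes, so the numbers were not taken to pair the samples. With 3 libraries a group, subunit genes whose intervals span 0 may still differ by less than those intervals.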
